A study of Mus musculus with 8 samples.

Results

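The genes expressed by mouse bone marrow MSCs under control conditions were read from the 4 arrays of cells transfected with empty vector (EV), out of 8 arrays in the series. The other 4 arrays carried RNA of cells given L63RhoA (Myc-tagged, constitutively active RhoA) and were not used here, so no effect of RhoA is described. The EV cells were purchased mouse bone marrow MSCs at passage 6, grown in αMEM with FCS. They were given EV DNA with Lipofectamine LTX and Plus reagent, and total RNA was hybridized to Illumina MouseRef-8 BeadChips. The sample records place the RNA extraction 48 h after transfection, whereas the methods give a later day. The design text speaks of independent experiments, but the records do not tie an array to a culture, and the spread between the 4 arrays may therefore be partly technical. All 4 arrays carried RNA of purchased, expanded cells given DNA and lipid, and whether these came from 1 lot is not stated. What the purchased cells, the culture and the transfection each contribute therefore cannot be told apart. A gene was called detected when at least 1 probe named for it had a deposited detection p-value under 0.05 on all 4 EV arrays, and it was represented by the brightest of these probes. By this rule 7708 of 16593 genes with a named probe were detected (46.5%). A further 2326 genes had a probe detected on 1 to 3 arrays and are called partly detected, and 6559 had none.

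MSCs, also called marrow stromal cells, are the non-blood cells of the marrow that adhere to plastic and can form bone, fat and cartilage cells. In the marrow they sit around vessels, lay down and remodel matrix, and hold blood stem cells in place by secreting factors such as the chemokine Cxcl12 and the kit ligand. In culture they are recognised by a set of surface antigens and by the lack of blood and endothelial markers, and they are studied for the cytokines, growth factors and matrix they release into injured tissue.

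Each EV array held 25697 probes, of which 12546 to 12928 were detected. Signals were corrected for background, quantile normalized and taken as log2 with neqc, and all signals below are on this scale. The mean log2 signal of detected genes ran from 4.55 to 14.28, with a median of 7.43 and quartiles of 5.99 and 9.0. A percentile below is the position of a gene among the 7708 detected genes. Probes differ in how strongly they bind, so these ranks order probe signals and not amounts of RNA. The arrays correlated at r = 0.984 to 0.995 across detected genes, which are not independent replicates, and the median SD of a gene over the 4 arrays was 0.15. To show how often a call is made where little RNA is to be found, 1199 olfactory and vomeronasal receptor genes were followed. Of these 1 was detected (0.0834%), Olfr724 at 5.28 ± 0.28 (SD, n = 4), and 140 were partly detected. Genes that every cell uses were missed at times, as 50 of 56 genes of cytosolic ribosomal proteins, 34 of 36 of proteasome subunits and 8 of 10 of RNA polymerase II subunits were detected. A gene that was not detected is therefore not shown to be silent.

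All 5 genes used as working markers of these MSCs were detected, and 4 of them lay above the 90th percentile of detected genes. Mmp13, which encodes an interstitial collagenase, had log2 signals of 13.75, 13.70, 13.93 and 13.60 in EV replicates 1 to 4 (13.74 ± 0.14, SD, n = 4; rank 26), and its other probes, which were also detected, averaged 11.44 and 7.13. Lox, the lysyl oxidase that crosslinks collagen and elastin, had signals of 12.17, 12.16, 11.85 and 12.16 (12.08 ± 0.16, SD, n = 4; rank 194). Mmp2, a gelatinase, stood at 10.55 ± 0.03 and Mgp, the matrix Gla protein that inhibits calcification, at 10.50 ± 0.08 (SD, n = 4 each; ranks 689 and 720). Lox was lowest in replicate 3 and Mgp highest in replicate 2, while Mmp2 was nearly level. Cxcl12 was the dim member of the set, with signals of 6.49, 6.33, 6.45 and 6.49 (6.44 ± 0.08, SD, n = 4; percentile 33.0). Of its 5 probes 3 were detected, the other 2 of these at 5.90 and 5.49, and 2 were not. The arrays thus detected every marker, but the niche chemokine gave a signal below the median of detected genes on all of its probes.

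The brightest and the dimmest of the 5 markers are shown with the DNA before their transcription start. The pair was chosen by signal, and a link between the makeup of a window and signal was not tested. Both are the 250 bases before the RefSeq start on build GRCm38.p6, plus strand, 5′ to 3′, at chr9:7272264-7272513 for Mmp13 and chr6:117168285-117168534 for Cxcl12. Capitals mark TATAAA, the core of a TATA box, searched on the gene's strand, and TGAGTCA, the letters bound by AP-1, searched on both strands (TGACTCA on the opposite one). The window of Lox is not shown, and RefSeq windows of Mmp2 and Mgp were not analysed here.
Mmp13: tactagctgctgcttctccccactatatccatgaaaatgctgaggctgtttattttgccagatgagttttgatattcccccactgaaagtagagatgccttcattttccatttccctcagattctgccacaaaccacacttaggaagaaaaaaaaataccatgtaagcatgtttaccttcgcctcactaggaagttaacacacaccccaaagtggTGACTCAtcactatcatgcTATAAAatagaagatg
Cxcl12: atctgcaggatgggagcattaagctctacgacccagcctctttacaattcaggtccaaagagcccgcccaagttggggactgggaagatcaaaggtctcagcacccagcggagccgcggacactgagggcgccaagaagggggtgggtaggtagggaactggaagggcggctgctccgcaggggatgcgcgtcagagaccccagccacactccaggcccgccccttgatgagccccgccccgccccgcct
The Mmp13 window held 1 CpG and 40.4% G and C, with TGACTCA starting at position -35 and TATAAA at position -16 from the start. The Cxcl12 window held 14 CpG and 64.4% G and C, and neither set of letters occurs in it. Among all 32851 RefSeq windows, which reach from 250 bases before to 50 after each start, 8.32% held TATAAA and 5.2% held TGAGTCA on either strand.

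Genes of the surface antigens used to recognise MSCs were mostly detected, but some of them gave dim signals or were not detected. Of 19 such genes with a named probe, 15 were detected (78.9%, against 46.5% of all genes), led by the tetraspanins Cd63 at 13.39 ± 0.08, Cd81 at 11.86 ± 0.10 and Cd9 at 11.05 ± 0.09 and by Bst2 at 10.96 ± 0.23 (SD, n = 4 each). Vcam1, the adhesion molecule that binds blood progenitors, had signals of 10.40, 10.78, 10.31 and 10.65 in replicates 1 to 4, higher in replicates 2 and 4. The hyaluronan receptor Cd44 stood at 9.57, the PDGF receptor gene Pdgfra at 9.21, the ectonucleotidase Nt5e (CD73) at 8.87, Itgb1 (CD29) at 6.08 and Eng (CD105) at only 5.0. Thy1 (CD90) and Bst1 were detected on no array, with 1 probe for Thy1, and Icam1 and Mcam on 1 array each. Ly6a (Sca-1) was not analysed here.

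Genes of the marrow niche were detected as often, 15 of 19 (78.9%), but most gave dim signals, with a median percentile of 33.0 among those detected. After Vcam1 the brightest were Csf1, the macrophage growth factor, at 9.36 ± 0.28, Pdgfra at 9.21 ± 0.09 and the BMP antagonist Grem1 at 8.61 ± 0.14 (SD, n = 4 each). Nes, encoding the nestin filament that marks perivascular stromal cells in the marrow, had signals of 7.16, 7.29, 7.04 and 7.37, and both of its probes were detected. The leptin receptor gene Lepr, a marker of stromal cells in adult marrow, was detected by neither of its 2 probes, and the kit ligand gene Kitl reached detection on 3 arrays at 4.55. The stromal transcription factors Foxc1, at 6.28, Ebf1, at 5.18, and Ebf3, at 4.79, were all detected near the lower end of the scale.

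**Figure D1:**
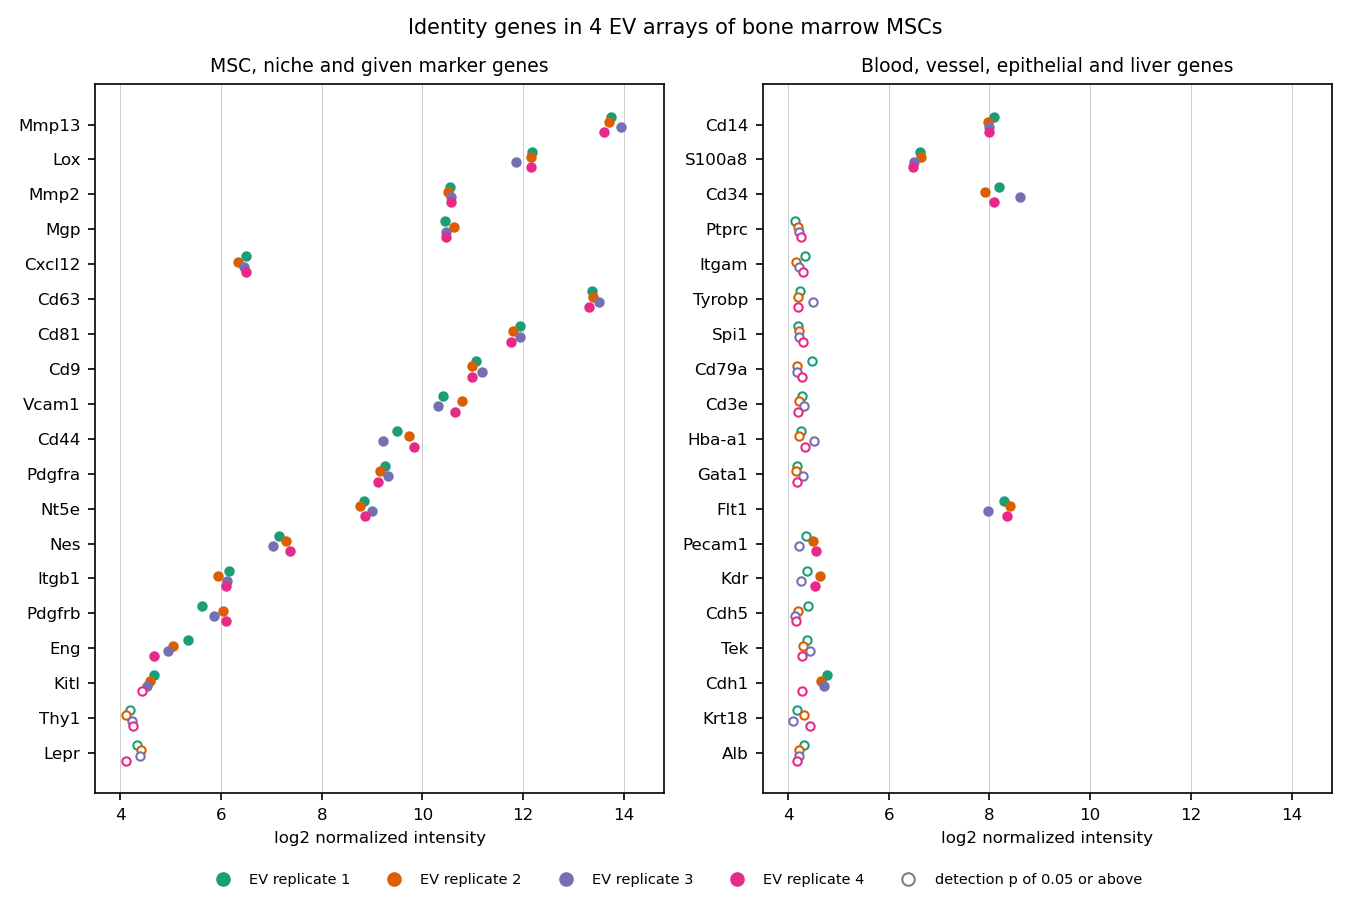
Log2 normalized intensity of identity genes on each of the 4 EV arrays (1 point per array, coloured by replicate; open points have a detection p of 0.05 or above), with the MSC, niche and marker genes on the left and genes of other cell types on the right. Mmp13 and Cd63 lie above 13 on all arrays, whereas Thy1, Lepr, Ptprc, Cdh5 and Alb have open points on all 4, at the bottom of the scale.

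Of 33 mesenchymal transcription factor genes 20 were detected (60.6%). Tcf4 stood at 10.20 ± 0.08, Twist2 at 8.98 ± 0.32, Nr2f1 at 8.59 ± 0.13 and Snai1 at 8.52 ± 0.12 (SD, n = 4 each), and Twist1, Zeb1 and Prrx1 followed at 8.43, 8.24 and 7.51. Twist2 was highest in replicate 3, at 9.46. Runx2 was not analysed here. Hox genes, which mark position along the body axis, were split by cluster. Of 38 with a probe 9 were detected (23.7%), namely Hoxc6, Hoxc9, Hoxc10 and Hoxc13 of the C cluster and Hoxa4, Hoxa5, Hoxa7, Hoxa9 and Hoxa13 of the A cluster. No Hoxb or Hoxd gene was detected on all 4 arrays, and Hoxb3, Hoxd9 and Hoxd11 were detected on 1 each. Hoxc6 stood at 10.13 ± 0.18 and Hoxc9 at 10.05 ± 0.13, whereas Hoxc10 had signals of 7.16, 7.95, 7.14 and 8.19 and Hoxc13 averaged 6.25 ± 0.17 (SD, n = 4). The brightest A-cluster gene was Hoxa5 at 6.14.

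Markers of leukocytes and lymphoid cells were largely undetected. In RNA of whole cultures, a low signal from few cells of a type and from little RNA per cell cannot be told apart. Of 16 pan-leukocyte and myeloid genes 3 were detected (18.8%), and Ptprc (CD45), Itgam (CD11b), Tyrobp, Spi1, Adgre1 and Lyz2 were among the 11 detected on no array. The 3 exceptions were the lipopolysaccharide co-receptor Cd14, with signals of 8.09, 7.98, 8.0 and 7.99, the calgranulin S100a8, with signals of 6.61, 6.63, 6.50 and 6.48, and Cd33, which averaged 5.20 ± 0.31 (SD, n = 4). Of 17 lymphoid genes only Cd74, the MHC class II invariant chain, was detected (5.88%), at 7.16 ± 0.12 (SD, n = 4), and Cd79a, Cd3e and Cd4 were detected on no array. Among 17 genes of blood progenitors, red cells and megakaryocytes 7 were detected (41.2%), near the 46.5% of all genes. Ly6e stood at 11.19 ± 0.11, the platelet chemokine gene Ppbp at 9.77 ± 0.09, Cd34 at 8.20 ± 0.29 and Gata2 at 7.64 ± 0.20 (SD, n = 4 each), and the globin genes Hba-a1 and Hbb-bt, Gata1, Tal1 and Alas2 were detected on no array. Cd34 was detected on every array, with 8.19, 7.92, 8.60 and 8.09. It stood at percentile 63.4 of detected genes.

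Vessel, epithelial and endodermal genes were also scarce. Of 21 endothelial genes 6 were detected (28.6%): Flt1, a VEGF receptor, at 8.25 ± 0.19, Egfl7 at 7.14 ± 0.29, Vwf at 5.60 ± 0.17 and Eng at 5.0 ± 0.28 (SD, n = 4 each), and Plvap and Nos3 below 5. The defining genes Cdh5 (VE-cadherin), Tek, Tie1 and Emcn were detected on no array, and Pecam1 and Kdr on 2. Of 18 epithelial genes none was detected on all 4 arrays. Cdh1 (E-cadherin) was detected on 3, Muc1 on 2 and 4 more on 1. Of 18 liver and pancreas genes 1 was detected (5.56%), the pancreatic elastase gene Cela1, with signals of 7.29, 7.43, 7.56 and 7.23. Of 12 pluripotency genes Klf4, at 10.10 ± 0.45, and Myc, at 5.69 ± 0.43, were detected (SD, n = 4 each), both of which are also used outside pluripotent cells. Sox2, Zfp42 and Esrrb were detected on no array, Pou5f1 on 1 and Nanog on 2.

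Genes of the bone and fat lineages were detected in shares near the 46.5% of all genes. Of 19 osteoblast genes 8 were detected (42.1%), with the collagen-binding protein gene Sparc at 12.94 ± 0.20, the transcription factor Atf4 at 11.51 ± 0.18, Col1a1 at 9.44 ± 0.39 and the decoy receptor gene Tnfrsf11b (osteoprotegerin) at 6.61 ± 0.20 (SD, n = 4 each). The bone-restricted regulator Sp7 and alkaline phosphatase gene Alpl were near the lower end, at 5.19 and 5.02. Phex and the osteocalcin gene Bglap2 were detected at 5.98 and 4.9, whereas Bglap, Ibsp, Dmp1 and Sost were detected on no array. Of 20 adipocyte genes 8 were detected (40.0%), with Cebpb at 12.64 ± 0.19, the lipid droplet coat gene Plin2 at 10.74 ± 0.15, and the adiponectin receptor genes Adipor1 and Adipor2 at 10.25 ± 0.09 and 9.33 ± 0.20 (SD, n = 4 each). Scd1, Lpl and Dlk1 of the same list stood at 9.07, 7.24 and 6.18, and Pparg, the regulator of fat cell formation, at 5.64. The mature fat cell genes Adipoq, Fabp4, Plin1, Lep and Cidec were detected on no array.

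Of 19 chondrocyte genes 2 were detected (10.5%). Sox9, the cartilage regulator, stood at 7.40 ± 0.23 and Sox5 at 5.36 ± 0.26 (SD, n = 4 each), whereas the cartilage matrix genes Acan, Comp and Col10a1 were detected on no array and Col2a1 on 1. The skeletal and cardiac muscle genes gave 3 of 18 (16.7%), Tnnc1 at 6.96, Des at 4.87 and Mef2c at 4.68, with Myod1, Myog and Pax7 on no array. Of 18 neural and glial genes 5 were detected (27.8%), namely Nes, Gap43 at 5.98, Ngfr at 5.91, Ncam1 at 5.72 and Map2. Of 19 mural and smooth muscle genes 9 were detected (47.4%, near the 46.5% of all genes). The tropomyosin genes Tpm1 and Tpm2 stood at 11.30 ± 0.11 and 9.71 ± 0.07 (SD, n = 4 each). Acta2, encoding αSMA, had signals of 9.62, 9.14, 9.62 and 8.98, higher in replicates 1 and 3 than in 2 and 4. Cald1 averaged 8.02 ± 0.47 (SD, n = 4). Of the other contractile genes, Smtn was detected at 7.92 and Actg2 at 4.92. Cnn1, Myh11 and Lmod1 were detected on no array and Tagln on 1. The regulator gene Myocd of the same list was also detected on no array.

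The 20 brightest genes were Ubb-ps, Rps12, Rps24, Rplp1, Rpl38, B2m, Rpl41, Rpl37, Mt1, Rps20, Rpl9, Ccl5, Lgals3, Rps2, Tuba1b, Lgals1, Rpl10, Rpl39, Rpl35 and Fth1, at 14.28 to 13.90. Ribosomal protein genes made up 12 of these 20 and 33 of the 100 brightest. Their probes, and that of the ubiquitin pseudogene Ubb-ps, may also bind near-identical copies elsewhere in the genome, so their names are uncertain. The remainder of the 20 were the MHC class I light chain gene B2m, the metallothionein gene Mt1, the chemokine gene Ccl5, the galectin genes Lgals3 and Lgals1, the tubulin gene Tuba1b and the ferritin gene Fth1. Ccl5 had signals of 14.01, 14.08, 13.88 and 14.07, so a secreted chemokine gave a signal in the range of the ribosomal genes on every array. Among the 100 brightest genes 10 belonged to the lists of secreted factors, 4 to matrix lists, 2 to surface lists and none to a receptor list.

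By class, 136 of 270 genes of secreted factors (50.4%), 70 of 123 matrix genes (56.9%), 57 of 99 surface genes (57.6%) and 88 of 241 receptor genes (36.5%) were detected. Matrix genes were the brightest of these when detected, with a median percentile of 70.9, and receptor genes the dimmest, at 32.6. Surface and secreted factor genes lay near the middle, at 55.2 and 53.9. Each share, here and for every list, is to be read beside 46.5% over all genes, and none of these differences was tested.

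**Figure D2:**
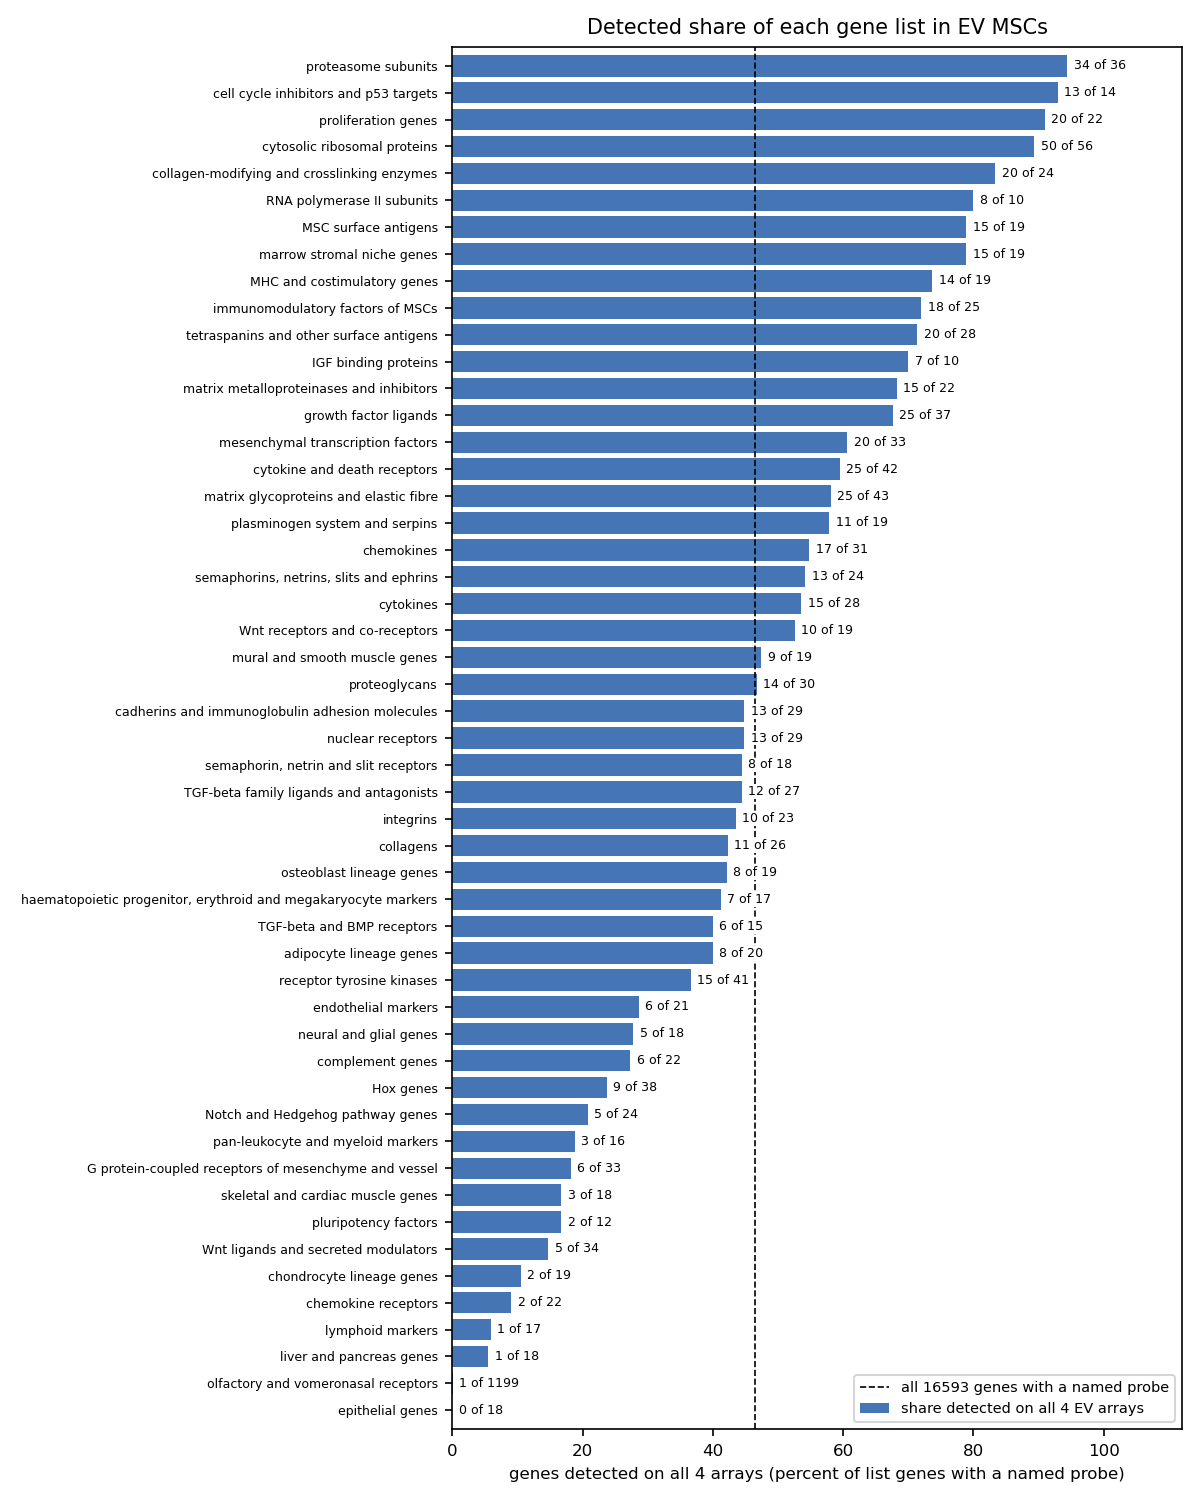
Share of the genes of each list that were detected on all 4 EV arrays (bars, in percent of list genes with a named probe, lists of 10 or more such genes), with the counts beside the bars and the share over all 16593 genes as a dashed line at 46.5%. MSC surface antigens and niche genes reach 78.9%, whereas lymphoid markers stand at 5.88% and epithelial genes at 0.

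Of 31 chemokine genes with a probe 17 were detected (54.8%, against 46.5% of all genes). Their median percentile was 60.5, and 5 of these lay above the 90th percentile of detected genes. Among secreted factors Ccl5 gave the highest signal. Ccl7, a monocyte attractant, had signals of 13.81, 13.89, 13.47 and 13.80, and Ccl2, which acts on the same cells, had 12.31, 12.69, 12.54 and 12.66. The neutrophil attractant Cxcl5 averaged 11.20 ± 0.25 (SD, n = 4), and Cxcl10 and Cxcl16, which attract lymphocytes, stood at 10.86 and 10.32. The bright chemokines were thus attractants of monocytes, neutrophils and T cells. Cxcl1, at 6.60, Ccl3, at 5.83, and Ccl4, at 4.89, were dimmer, and Ccl11, Ccl20, Cxcl2, Cxcl3 and Cxcl13 were detected on no array.

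Of 28 cytokine genes 15 were detected (53.6%, against 46.5% of all genes). Mif stood at 13.81 ± 0.17, and Il6 had signals of 10.19, 10.70, 10.09 and 10.85, higher in replicates 2 and 4. Csf1 averaged 9.36 ± 0.28 and the alarmin Il33 averaged 9.20 ± 0.12 (SD, n = 4 each). The growth factors of granulocytes and macrophages, Csf2 and Csf3, were detected at 7.09 and 6.01, and Il7, needed by lymphoid progenitors, at 7.39. Of the inflammatory cytokines, Il15, Il1a and Il18 were detected at 8.58, 8.51 and 7.56. Il1b, Tnf and Ifnb1, as well as Osm and Il10, were detected on no array. Of 25 immunomodulatory factors described for MSCs 18 were detected (72.0%). Lgals3 and Lgals1 stood at 14.01 ± 0.09 and 13.94 ± 0.27 (SD, n = 4 each), Hmox1 at 9.87, the IL-1 antagonist Il1rn at 8.25, the prostaglandin synthase gene Ptgs2 at 7.91, Nos2 at 7.56, Hgf at 6.86 and Ido1 at 5.54. Tnfaip6 (TSG-6), Arg1, Entpd1 and Fasl were detected on no array.

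Growth factor ligands were detected in 25 of 37 cases (67.6%), 6 of them above the 90th percentile. Fgf7, the keratinocyte growth factor, had signals of 12.18, 12.32, 12.43 and 12.29, Hdgf averaged 12.13 ± 0.34 and Vegfa, the main angiogenic factor, 11.34 ± 0.13 (SD, n = 4 each). Grn (progranulin) had signals of 12.22, 11.57, 12.52 and 11.68. Grn and Hdgf were higher in replicates 1 and 3 than in 2 and 4, whereas Fgf7 and Vegfa did not split that way. Pdgfa stood at 11.11, Angptl4 at 10.89 and Gdnf at 9.62. Igf1 was detected on 1 array, and Fgf2, Fgf9, Egf and Tgfa on none. IGF binding proteins and related genes were detected in 7 of 10 cases (70.0%), led by Igfbp7 at 13.09 ± 0.07, Igfbp4 at 11.65 ± 0.34, the protease gene Htra1 at 10.16 ± 0.08 and Igfbp6 at 9.87 ± 0.04 (SD, n = 4 each). Igfbp5 and Igfbp1 were detected on no array.

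In the TGFβ family the highest signals came from antagonists and processing factors. Of 27 genes 12 were detected (44.4%, near the 46.5% of all genes). Fstl1 stood at 10.73 ± 0.65, Twsg1 at 10.68 ± 0.10, Nbl1 at 9.66 ± 0.16 and the procollagen protease gene Bmp1 at 8.70 ± 0.26 (SD, n = 4 each). The ligand genes Inhba, Bmp4, Tgfb1, Tgfb3 and Tgfb2 averaged 8.30, 7.68, 7.21, 5.48 and 5.01. Fstl1 was among the most variable of the genes described, with signals of 10.35, 11.33, 10.01 and 11.24. Wnt ligands and secreted Wnt modulators were sparse, 5 of 34 (14.7%): Wnt5a at 7.85 ± 0.09, Wnt10b at 7.10 ± 0.09, Rspo2 at 5.54 ± 0.42, Wnt5b at 5.49 ± 0.21 (SD, n = 4 each) and Rspo3. The Wnt inhibitors Sfrp1, Sfrp2, Frzb, Dkk3, Wif1 and Sost were detected on no array. Guidance ligands were detected in 13 of 24 cases (54.2%, against 46.5% of all genes). Slit2 stood at 9.86 ± 0.08, Efna5 at 6.95 ± 0.22, Efnb1 at 6.41 ± 0.61 and Sema3a at 6.33 ± 0.10 (SD, n = 4 each). Complement genes gave 6 of 22 (27.3%), with the membrane regulator gene Cr1l at 7.63 ± 0.15, Cfb at 7.35 ± 0.26, C1s1 at 7.25 ± 0.20 and the C1 inhibitor gene Serping1 at 6.55 ± 0.11 (SD, n = 4 each).

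**Figure D3:**
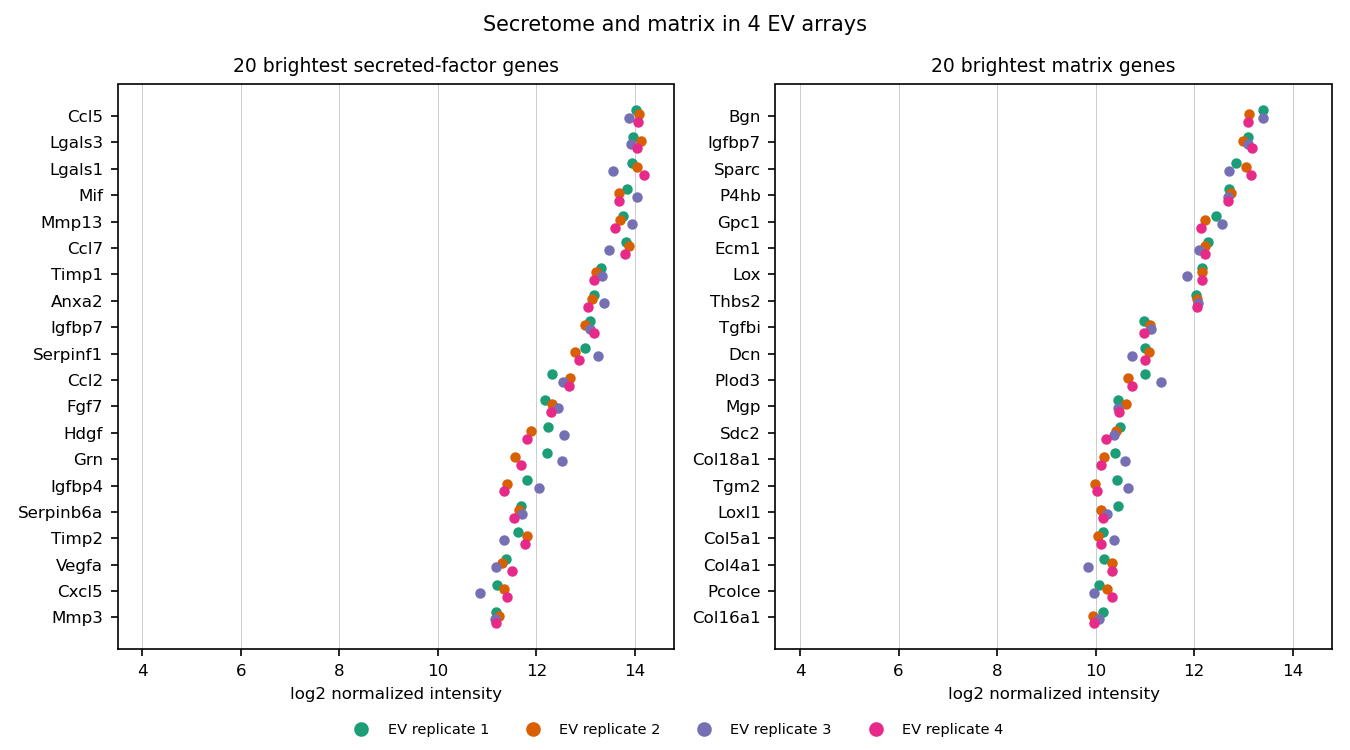
Log2 normalized intensity on each of the 4 EV arrays (1 point per array, coloured by replicate) of the 20 brightest detected genes in the lists of secreted factors (left) and of matrix (right). Ccl5, Lgals3 and Lgals1 lead the secreted factors near 14, Bgn and Igfbp7 lead the matrix genes near 13, and the spread of each gene over the arrays is small beside the range of the genes.

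Among matrix genes the highest signals came from proteoglycans, glycoproteins and the enzymes that finish collagen. Of 26 collagen genes 11 were detected (42.3%, near the 46.5% of all genes) and none reached the 90th percentile. The brightest were Col18a1 at 10.32 ± 0.22, Col5a1 at 10.17 ± 0.14, Col4a1 at 10.17 ± 0.23 and Col16a1 at 10.03 ± 0.09 (SD, n = 4 each). The fibril collagens of bone and skin stood at 9.44 for Col1a1, 9.39 for Col3a1 and 9.32 for Col1a2, and Col1a1 had signals of 9.29, 9.68, 8.97 and 9.83, higher in replicates 2 and 4. Of 24 genes of collagen-modifying and crosslinking enzymes 20 were detected (83.3%) and the other 4 partly. P4hb, a subunit of prolyl hydroxylase, stood at 12.71 ± 0.03, the lysyl hydroxylase gene Plod3 at 10.93 ± 0.30 and the transglutaminase gene Tgm2 at 10.27 ± 0.33 (SD, n = 4 each), beside Lox, Loxl1 at 10.24 and the collagen chaperone gene Serpinh1 at 9.01.

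Of 43 glycoprotein and elastic fibre genes 25 were detected (58.1%). After Igfbp7 and Sparc, Ecm1 stood at 12.20 ± 0.08 and the antiangiogenic thrombospondin gene Thbs2 at 12.06 ± 0.02 (SD, n = 4 each), followed by Tgfbi at 11.05. Ccn2, encoding CTGF, stood at 8.10 and Ccn5 at 5.49. Periostin (Postn), elastin (Eln) and the microfibril genes Mfap2 and Mfap5 were detected on no array, and Fn1 and Fbn1 were not analysed here. Of 30 proteoglycan genes 14 were detected (46.7%, near the 46.5% of all genes), but those detected were bright, with a median percentile of 78.3. Bgn (biglycan) had signals of 13.39, 13.11, 13.39 and 13.10, Gpc1 averaged 12.34 ± 0.20, Dcn (decorin) 10.95 ± 0.14 and Sdc2 10.38 ± 0.12 (SD, n = 4 each), whereas Lum, Fmod and Aspn, of the same small leucine-rich family as Bgn and Dcn, were detected on no array.

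Matrix metalloproteinase and inhibitor genes were detected in 15 of 22 cases (68.2%), 6 of them above the 90th percentile. Beside Mmp13 and Mmp2, the stromelysin gene Mmp3 had signals of 11.19, 11.24, 11.17 and 11.18, the membrane-bound Mmp14, which activates Mmp2, stood at 10.50, and Mmp10 and Mmp9 at 8.71 and 8.06. Of the inhibitors, Timp1 stood at 13.26 ± 0.08 and Timp2 at 11.63 ± 0.21 (SD, n = 4 each) and Timp3 at 9.83, and Timp4 was detected on no array. Proteases and their inhibitors thus both gave high signals in the same RNA. In the plasminogen system 11 of 19 genes were detected (57.9%), led by the plasminogen-binding annexin gene Anxa2 at 13.18 ± 0.13, the serpin gene Serpinf1 (PEDF) at 12.97 ± 0.20, Serpinb6a at 11.64 ± 0.07 and Thbd at 11.14 ± 0.04 (SD, n = 4 each). The urokinase receptor gene Plaur stood at 8.47 and urokinase itself, Plau, at 5.74, whereas Plat and F3 were detected on no array.

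Of 28 tetraspanin and other surface antigen genes 20 were detected (71.4%), and 8 of them lay above the 90th percentile. Beside Cd63, Cd81 and Cd9, podoplanin (Pdpn) had signals of 12.69, 12.61, 12.65 and 12.51 and Ly6c1 averaged 12.29 ± 0.04 (SD, n = 4), followed by the prion protein gene Prnp at 11.16 and the caveolin gene Cav1 at 11.01. Fap, Dpp4 and Cd200 were detected on no array. Of 23 integrin genes 10 were detected (43.5%, near the 46.5% of all genes). The brightest was Itgb7, with signals of 10.72, 10.80, 10.54 and 10.80, although of its known partners Itga4 was detected on no array and Itgae on 2. Itgb5 stood at 9.15 ± 0.18, Itga3 at 9.10 ± 0.15 and Itga5, the fibronectin receptor subunit, at 7.90 ± 0.44 (SD, n = 4 each). Itgb3 and the collagen-binding Itga1 and Itga2 were detected on no array, whereas Itga11, which also binds collagen, was detected at 5.43. Of 29 cadherin and immunoglobulin adhesion genes 13 were detected (44.8%, near the 46.5% of all genes). After Vcam1 they were led by Cd47 at 10.11 ± 0.06, Nectin2 at 8.64 ± 0.71 and Jam2 at 8.15 ± 0.27 (SD, n = 4 each). The mesenchymal cadherin genes Cdh2 and Cdh11 were at 5.45 and 4.95.

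MHC and costimulatory genes were detected in 14 of 19 cases (73.7%). B2m stood at 14.16 ± 0.03, H2-T23 at 11.80 ± 0.15 and H2-M3 at 9.30 ± 0.06 (SD, n = 4 each), and H2-D1 had signals of 9.89, 10.12, 9.59 and 10.57, highest in replicate 4. Probes of class I genes may bind more than 1 member of that family. The class II genes H2-Aa and H2-Eb1 and their activator Ciita were detected on no array, and H2-Ab1 on 1. The class II pathway genes Cd74, H2-DMb1 and H2-DMa were detected at 7.16, 4.79 and 4.67. Cd86 was detected on no array, whereas the costimulatory gene Cd80 and the inhibitory ligand gene Cd274 (PD-L1) were detected at 5.59 and 7.07.

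Among receptor genes the lists ran on both sides of the share over all genes. Of 41 receptor tyrosine kinase genes 15 were detected (36.6%, against 46.5% of all genes). Axl, a receptor for Gas6, had signals of 11.60, 11.45, 11.58 and 11.50, the Wnt receptor Ryk averaged 9.82 ± 0.14, Pdgfra 9.21 ± 0.09 and Flt1 8.25 ± 0.19 (SD, n = 4 each), whereas Pdgfrb stood at 5.91 and Fgfr1 at 5.28. Of 42 cytokine and death receptor genes 25 were detected (59.5%), a larger share than the 46.5% of all genes, with the TWEAK receptor gene Tnfrsf12a at 12.12 ± 0.12, Tlr2 at 10.74 ± 0.02, the growth hormone receptor gene Ghr at 10.44 ± 0.04 and Il13ra1 at 9.39 ± 0.16 (SD, n = 4 each). Osmr, the oncostatin M receptor subunit, stood at 9.04, the shared subunit Il6st at 6.64 and Tlr4 at 7.42. The 6 detected of 15 TGFβ and BMP receptor genes (40.0%) included both chains of the TGFβ receptor, Tgfbr2 with signals of 9.04, 9.07, 9.05 and 9.11 and Tgfbr1 at 8.93 ± 0.09, and the co-receptor gene Tgfbr3 at 8.51 ± 0.14 (SD, n = 4 each). Acvr1 stood at 8.06 and Eng was the dimmest.

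Of 22 chemokine receptor genes 2 were detected (9.09%), Ccrl2, a receptor that does not signal as others do, at 5.84 ± 0.10 and Cxcr6, the receptor of Cxcl16, at 5.01 ± 0.20 (SD, n = 4 each). Cxcr4 and Ackr3, the receptors of Cxcl12, and Ccr1, Ccr2, Ccr3 and Cxcr2 were among 15 detected on no array. G protein-coupled receptors of mesenchyme and vessel gave 6 of 33 (18.2%), with the thrombin receptor gene F2r at 9.91 ± 0.05, the lysophosphatidic acid receptor genes Lpar4 and Lpar1 at 9.28 ± 0.18 and 9.02 ± 0.09 and the sphingosine phosphate receptor gene S1pr2 at 6.62 ± 0.04 (SD, n = 4 each). Both F2r and the Lpar genes encode receptors known to act upstream of RhoA. Agtr1a, S1pr1 and S1pr3 were detected on no array.

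Wnt receptor genes were detected in 10 of 19 cases (52.6%), near the 46.5% of all genes, with Fzd7 at 8.55 ± 0.16, Lrp1 at 6.66 ± 0.38 and Fzd6 at 6.32 ± 0.10 (SD, n = 4 each) after Ryk. Of 24 Notch and Hedgehog genes 5 were detected (20.8%). The Hedgehog transducer gene Smo stood at 7.05 ± 0.09, Notch4 at 5.56 ± 0.25, Hes1 at 5.37 ± 0.10 and Dll1 at 5.23 ± 0.29 (SD, n = 4 each), and Shh, Ihh, Ptch1 and Gli1 were detected on no array. Guidance receptors gave 8 of 18 (44.4%, near the 46.5% of all genes). Neo1 stood at 9.48 ± 0.17, the VEGF and semaphorin co-receptor gene Nrp1 at 7.35 ± 0.15, Unc5b at 7.11 ± 0.39 and Robo1, a receptor of Slit2, at 6.88 ± 0.16 (SD, n = 4 each). Of 29 nuclear receptor genes 13 were detected (44.8%, near the 46.5% of all genes). Rxrb stood at 8.80 ± 0.29, Nr2f1 at 8.59 ± 0.13, the clock gene Nr1d2 at 7.75 ± 0.07 and Nr2f6 at 7.67 ± 0.28 (SD, n = 4 each). The vitamin D receptor gene Vdr stood at 6.34 and the glucocorticoid receptor gene Nr3c1 at 4.96.

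**Figure D4:**
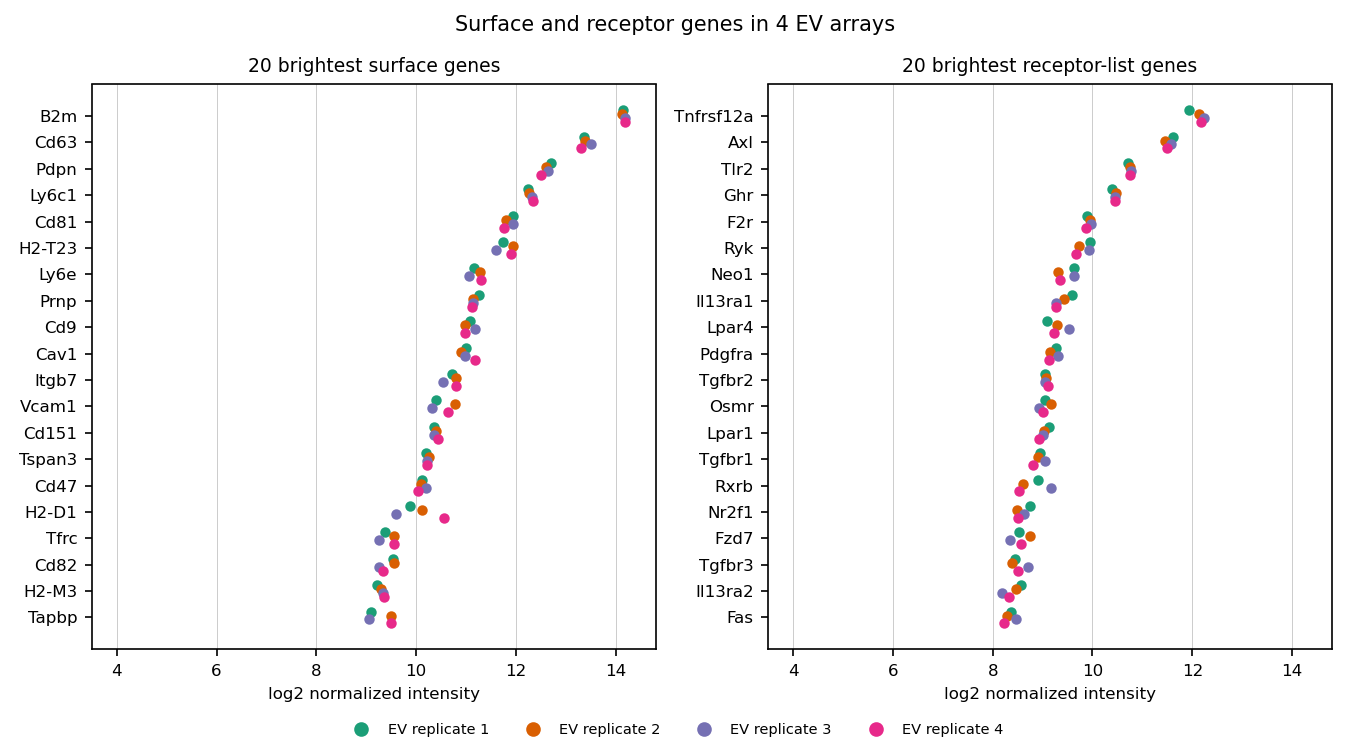
Log2 normalized intensity on each of the 4 EV arrays (1 point per array, coloured by replicate) of the 20 brightest detected genes in the surface lists (left) and in the receptor lists (right). B2m and Cd63 lead the surface genes above 13, and Tnfrsf12a and Axl lead the receptor genes near 12, with most other receptor genes in the plot between 8.0 and 10.

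To set the secreted ligands beside their receptors in the same cells, 66 known ligand and receptor pairs were listed after the values were known. In 60 of them the ligand was detected and the receptor had a named probe, and in 24 of these the receptor was detected too. Among chemokine pairs this held for 1 of 12, Cxcl16 with Cxcr6, and among the other pairs for 23 of 48, a share near the 46.5% of all genes that were detected. The pairs are not independent, as Ccr1, Ccr2 and Ccr3 each stand in 2 of the chemokine pairs. The other pairs included Pdgfa with Pdgfra, Vegfa with Flt1, Tgfb1 with Tgfbr1 and Tgfbr2, Hbegf with Egfr, Il6 with Il6st, Wnt5a with Ryk and Ror2, Slit2 with Robo1 and Sema3a with Nrp1. The receptor was detected on no array in 22 pairs, such as Cxcl12 with Cxcr4, Angpt1 with Tek and Gdnf with Ret, and only partly in 14, such as Hgf with Met.

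The cells carried genes of the cell cycle and of its inhibitors. Of 22 proliferation genes 20 were detected (90.9%), with the D-type cyclin genes Ccnd1, Ccnd3 and Ccnd2 at 11.57 ± 0.15, 10.04 ± 0.11 and 9.90 ± 0.18 and the thymidylate synthase gene Tyms at 10.77 ± 0.15 (SD, n = 4 each). The mitotic genes Cdk1 and Top2a stood at 9.47 and 8.15. Of 14 genes of cell cycle inhibitors and p53 targets 13 were detected (92.9%). Gadd45a stood at 11.62 ± 0.04, Cdkn2b (p15) had signals of 11.30, 11.33, 11.20 and 11.13, and Cdkn2a, which encodes p16 and ARF, had 10.29, 9.81, 10.34 and 9.65, higher in replicates 1 and 3. Mdm2 averaged 9.62 ± 0.22 (SD, n = 4) and Cdkn1a (p21) 9.02. The Y-linked genes Eif2s3y, Kdm5d and Uty were detected on all arrays, at 8.20 ± 0.18, 5.52 ± 0.13 and 5.07 ± 0.34 (SD, n = 4 each), and Xist on 1.

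The 4 EV arrays did not scatter evenly. The first principal component held 66.9% of the variance among them, with weights of 0.27, -0.46, 0.69 and -0.50 in replicates 1 to 4, so replicates 1 and 3 stood against 2 and 4. The deposited mean signals, before normalization, ran the same way, at 346.5 and 377.4 in replicates 1 and 3 and 273.7 and 292.4 in replicates 2 and 4, and the part of signal strength in the split was not tested. Over all detected genes replicates 1 and 3 were both above or both below replicates 2 and 4 in 4272 (55.4%). Of the 92 genes with an SD over 0.5 (1.19% of detected genes), 91 had this arrangement. The count of 92 fell to 56 without replicate 3 and was 177 without replicate 1, and it was 19 without the further background correction. The 10 genes of largest SD, which were chosen by that SD, were Bak1, Zfp987, Phlda1, Erdr1, Vat1, Mapk8ip1, Slc35c1, Cercam, Nectin2 and Erich5, at SDs of 1.08 to 0.70. Bak1, a promoter of apoptosis, had signals of 5.92, 7.40, 5.34 and 7.50. Phlda1 had 10.12, 11.21, 9.20 and 10.93, and Nectin2, an adhesion molecule, had 9.15, 7.99, 9.35 and 8.08. In all 10 of them replicates 1 and 3 lay on one side of 2 and 4. Among the genes described above with values for each array, many had the same split. Fstl1, Il6, Col1a1, Vcam1, Hoxc10, H2-D1, Nes and Ccl5 were examples that ran lower in replicates 1 and 3. Grn, Acta2, Bgn, Cdkn2a, Mmp13, Axl and Pdpn were examples that ran higher there, some by small gaps.

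**Figure D5:**
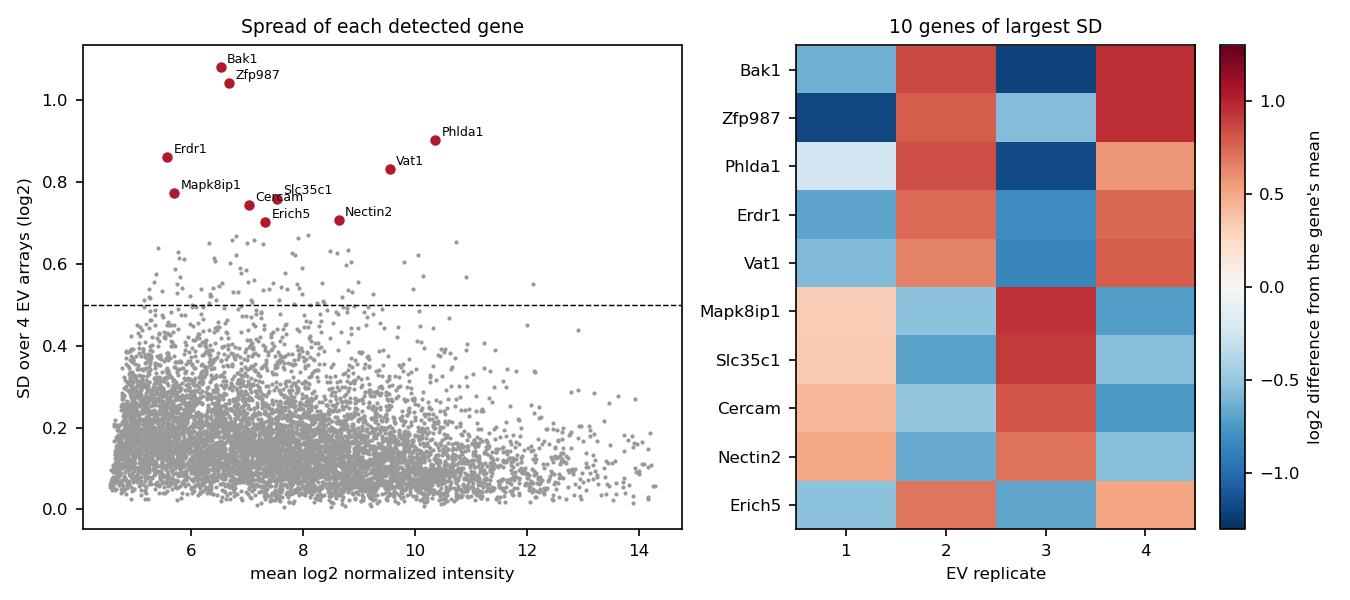
Left, SD over the 4 EV arrays (log2) against the mean log2 normalized intensity of each of the 7708 detected genes, with the SD of 0.5 as a dashed line and the 10 genes of largest SD in red. Right, the difference of each array from the mean of the gene (log2, blue lower, red higher) for these 10 genes, all of which have replicates 1 and 3 on one side and replicates 2 and 4 on the other.

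The promoters of detected genes were set beside those of undetected ones. RefSeq windows of build GRCm38.p6, from 250 bases before to 50 after the start, were found for 6324 of the 7708 detected genes and for 5170 of the 6559 genes detected on no array, and the first window listed stood for the gene. Windows of detected genes held a median of 21 CpG and 61.0% G and C, and those of genes detected on no array 5 CpG and 51.7%. TATAAA on the gene's strand was found in 297 windows of detected genes (4.70%) and in 684 of genes detected on none (13.2%). Detected genes of the secretome and matrix lists held TATAAA in 26 of 144 windows (18.1%), and the genes of the same lists detected on no array held it in a like share, in 18 of 92 (19.6%). TGAGTCA on either strand occurred in 18 of these 144 windows (12.5%) and in 5 of the 92 (5.43%). It occurred in 3.62% of windows of all detected genes and in 5.61% of those of all genes detected on no array. Of 17 detected chemokine genes 11 had a window, and of these 4 held TATAAA and 2 held TGAGTCA. Windows of the bright chemokine genes Ccl5, Ccl7 and Ccl2 were not analysed here. These are counts of letters in a window and were not tested.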

How the data were processed

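RNA of mouse bone marrow MSCs was measured on Illumina MouseRef-8 BeadChips, and the 4 EV arrays were taken from the sample records. The authors deposited signal intensity values extracted with GenomeStudio, on a linear scale and with no value under 75.2, together with deposited detection p-values. The version of GenomeStudio was not given in the sources used here. Processed values from the authors were on the log2 scale with a median of 6.64 in each EV column and ranked probes as the deposited intensities did, with no centring of genes; they served as an alternative. Names of the 25697 probes came from the platform annotation (1 symbol for 23978, none for 1719), and 23962 symbols were updated through the RefSeq gene table of GRCm38.p6. Of 11260 probes detected on all 4 arrays, 632 had no name and were not used.

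Intensities were background corrected from the detection p-values, quantile normalized and taken as log2 with neqc (limma 3.58.1, R 4.3.3, offset 16), a step tested on simulated data. The number of arrays limits the precision. No groups were compared and no test of a difference was run. Single arrays far from the others were flagged by a critical ratio of 0.829 for 4 arrays. The members, gene lists and naming rule were chosen with earlier results of these data known. Values were given for the 5 markers, up to 4 of the brightest detected members of each list, the 20 brightest genes and the 10 genes of largest SD. Other list members were named after their values were seen, and the lists of ribosomal, proteasome and polymerase genes and the ligand and receptor pairs were made then. Alternatives were other detection rules, leaving out each array, other normalizations and the mean of a gene's detected probes. Detection on replicates 1 and 3 or on 2 and 4 only was added after seeing the data.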

Additional observations from a re-analysis of the deposited data

Results flagged for a closer look

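Of the 190 genes with values for each array, 8 had 1 array far from the other 3, measured as the gap to the nearest array over the whole range of the gene. Chance gives about 1 in 20 such genes. Replicate 3 stood apart for Rps20 (13.81, with the others at 14.13 to 14.16; ratio 0.912), for Lox (11.85, with the others at 12.16 to 12.17; ratio 0.964) and for Ccnd1 (11.79, with the others at 11.48 to 11.52; ratio 0.875). Replicate 1 stood apart for Nr2f6 (8.08, with the others at 7.51 to 7.55; ratio 0.932) and, by a gap that is small in itself, for Rpl35 (13.88, with the others at 13.91; ratio 1.00). Replicate 2 stood apart for Mgp (10.63, with the others at 10.45 to 10.47; ratio 0.875) and for Uty (4.55, with the others at 5.19 to 5.29; ratio 0.863). Replicate 4 stood apart for Unc5b (6.52, with the others at 7.29 to 7.33; ratio 0.955).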

How the results depend on the processing

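The number of detected genes stayed within 1.5 times of 7708 under every alternative, and it was 7781 to 7825 without any one array. No list count moved by more than 1.5 times when each gene was judged by its brightest probe only. With a detection p under 0.01 endothelial genes gave 3 and muscle genes 1. Detection on at least 1 array gave 16 Hox genes, 7 pluripotency factors, 5 myeloid, 4 lymphoid and 12 endothelial markers, 5 chondrocyte, 8 neural, 6 epithelial and 6 liver and pancreas genes, 17 collagens, 14 complement genes, 12 Wnt ligands and modulators, 22 cadherin and immunoglobulin adhesion genes, 27 receptor tyrosine kinases, 10 TGFβ and BMP receptors, 7 chemokine receptors, 20 G protein-coupled receptors, 10 Notch and Hedgehog genes, 20 nuclear receptors and 141 olfactory and vomeronasal receptors. Without any one array olfactory and vomeronasal receptors gave 1 to 3 and epithelial genes 0 to 1, where the 1 came without replicate 4. On replicates 1 and 3 only, epithelial genes gave 1, liver and pancreas genes 2 and olfactory receptors 6, and on replicates 2 and 4 only olfactory receptors gave 8. The count of genes with an SD over 0.5 was 56 to 177 without any one array and 19 with no further background correction.

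Percentiles depended most on the choice of probe. With the mean of a gene's detected probes, 37 of the 190 named genes moved by over 5 points, Rpl37 to 64.6 against 99.9 by its brightest probe, Acta2 to 55.0 against 79.3 and Mmp13 to 93.9 against 99.7. Under other normalizations no named gene moved by over 5 points. Signals near the background limit what can be detected. Genes whose highest detection p was 0.04 to 0.05 had a median log2 signal of 4.71, beside 4.64 for genes detected on 3 arrays and 4.24 for genes detected on none. No paired analysis was possible because no groups were compared.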

Other observations

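Probes of 1 gene often differed in detection. Over all genes, 1584 of 2948 detected genes with several named probes had every probe detected on all 4 arrays. Among the genes described, 1 of 6 probes was detected for Cd44, 2 of 4 for Tgfbr1, 2 of 5 for Tyms and 3 of 6 for Tnc.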
